A study of Mus musculus with 2 samples.

Results

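The 63 genes described here encode subunits of the nuclear RNA polymerases and of their partner complexes Mediator and Integrator. They were chosen by symbol from a table of 38817 genes, as the names that begin with POLR1, POLR2 or POLR3 and a letter, or with MED or INTS and a number. The rule found 5 POLR1, 11 POLR2, 9 POLR3, 27 MED and 11 INTS genes. The data were RNA sequencing of matured oocytes in a series on spermidine, a natural polyamine, and the meiotic maturation of porcine oocytes. 1 library labelled SPE, read here as spermidine-treated, was set against 1 control library. Per the labels, RNA came from 100 oocytes per group, and both samples carried the same genotype label, WT ICR, with no treatment dose or duration in the labels used here. The labels name the mouse, whereas the table places its genes on pig chromosomes. The link between columns and samples therefore rests on the column names and numbers, and the build of the positions given below is not stated in the sources used here. Columns named Con2 and SPD2, by their names a further control and a further spermidine library, matched no sample used here and were left out. With the 1 library per group used here there is no replicate error and no test, and every difference below compares these libraries only. In an oocyte pool, fewer cells of a type and less RNA per cell cannot be told apart.

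RNA polymerase I makes the large ribosomal RNA precursor, RNA polymerase II makes messenger RNA and most small nuclear RNAs, and RNA polymerase III makes transfer RNA and 5S ribosomal RNA. Each is built around a pair of large catalytic subunits, and several small subunits are shared between the enzymes. Mediator links transcription factors at enhancers to RNA polymerase II through its tail, middle and head modules, and a separable kinase module regulates it. Integrator cuts nascent RNA and ends transcription of small nuclear RNAs and of paused polymerases. A fully grown oocyte shuts transcription down before it resumes meiosis and lives on stored messages, so most of its transcripts at maturity are stored ones.

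The libraries carried oocyte transcripts and little somatic RNA. The 12 oocyte markers summed to 1485 FPKM in the SPE library and 1453 FPKM in the control library, with FIGLA, NLRP5 and DDX4 under 0.5 FPKM in both. The 16 somatic markers found summed to 1.37 FPKM in the SPE library and 4.64 FPKM in the control library. FPKM is a level per length of transcript and per library. The granulosa and cumulus part of that sum was 1.03 FPKM in the SPE library and 3.89 FPKM in the control library over 9 genes, with AMH and TNFAIP6 listed at 0 in both. Most of the control value came from HSD3B1 and STAR. HSD3B1 was at 0.111 FPKM in the SPE library and 1.90 FPKM in the control library, and STAR at 0.168 and 1.27 FPKM. CYP19A1 and FOXL2 were instead higher in the SPE library, under 0.5 FPKM in both. The part of somatic RNA in the differences below was not tested.

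Subunits of one complex were listed at very unequal FPKM. How far gene length and shared loci, described below, shape these levels was not tested. Of the 63 genes, 25 (39.7%) reached 1 FPKM on average over the SPE and control libraries, against 20.3% of all 14922 genes with an established symbol, and only these 25 were compared between libraries. 10 genes reached a mean of 10 FPKM, and these held 86.9% of the summed FPKM of all 63 genes in the SPE library and 88.2% in the control library. POLR2C, MED28 and POLR3K alone held 54.7% in the SPE library and 56.1% in the control library. At the other end 17 genes had a mean below 0.1 FPKM, and INTS1, MED29 and MED31 were listed at 0 in both libraries. Low levels were not particular to these families. Of the 14922 established genes 769 reached a mean of 10 FPKM, 8356 had a mean below 0.1 FPKM and 4615 were listed at 0 in both libraries. The order of the 63 levels was similar in both libraries (Spearman's rho = 0.90 across genes, which are not independent replicates). With no spread between replicates, no neighbours in that order can be said to differ.

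**Figure D1:**
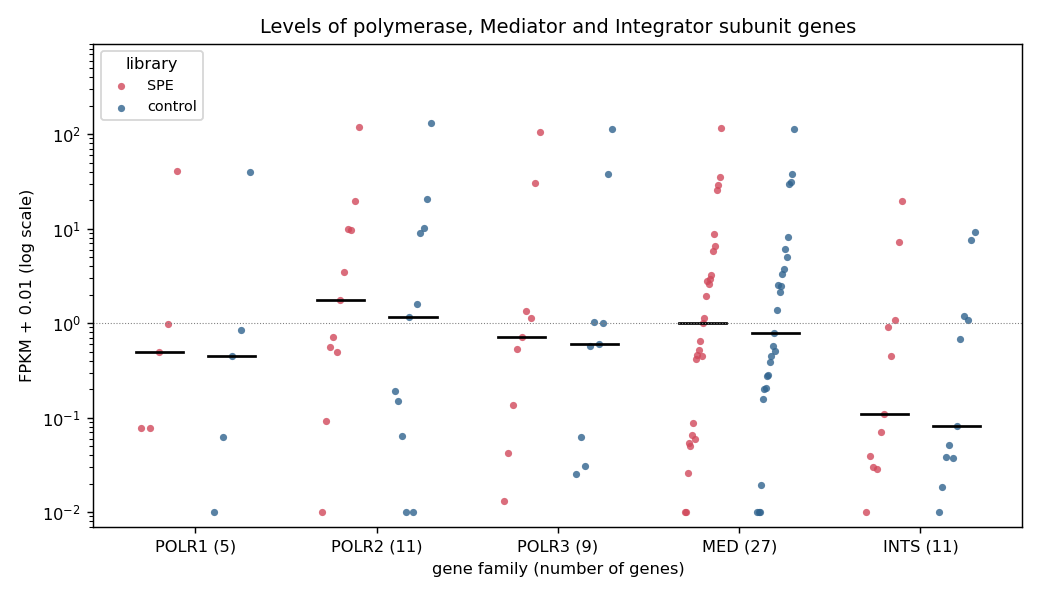
FPKM of every subunit gene (FPKM + 0.01, log axis) by family, with the SPE library left of the control library; each point is 1 gene and each black bar the family's median. Every family spans from 0.1 FPKM or less to several FPKM or more, and the dotted line marks 1 FPKM.

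The genes with high levels had shorter loci in the median. POLR1D was the exception at 49155 bases, over a locus shared with 2 other genes. The 10 genes of at least 10 FPKM had a median locus span of 8718 bases, against 29956 bases for the other 53. Matching median spans were not computed for other genes. Over the 25 genes of at least 1 FPKM the mean level and the span had a Spearman's rho of -0.61. The rho was -0.24 over the 3030 established genes of at least 1 FPKM. Over all 63 it was -0.23, against -0.29 over the established genes with a mean above 0. Spans run from the first to the last base of a locus, introns included. 17 of the 63 genes have a locus in the table that is identical to that of at least 1 other gene, and how reads were divided there is not given.

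RNA polymerase II had its highest transcript in POLR2C, a subunit of the assembly platform on chromosome 6 (17383885 to 17391432), with 118 FPKM in the SPE library and 131 FPKM in the control library (log2 ratio -0.15). POLR2M, which binds the enzyme and keeps it from initiating without Mediator, was at 19.6 FPKM in the SPE library and 20.6 FPKM in the control library (-0.07). Log2 ratios are those of SPE + 1 over control + 1, in FPKM, so positive values are higher in the SPE library. POLR2A, the largest catalytic subunit, whose tail is phosphorylated through the transcription cycle, was at 9.93 FPKM in the SPE library and 9.02 FPKM in the control library (0.13). Its partner in the active site, POLR2B, was at 0.0817 FPKM in the SPE library and 0.141 FPKM in the control library. Neither value of POLR2B reaches 1% of that of POLR2C, and its locus is shared with IGFBP7, listed at 0.987 FPKM in the SPE library and 1.09 FPKM in the control library. The POLR2A locus on chromosome 12 is likewise shared, with PLSCR3, TNK1, TMEM256 and a provisional gene, none of them above 0.132 FPKM in either library. POLR2D, the stalk subunit, was at 0.555 FPKM in the SPE library and 0.0542 FPKM in the control library. POLR2I was at 0.697 FPKM in the SPE library and listed at 0 in the control library, whereas POLR2G was listed at 0 in the SPE library and at 0.181 FPKM in the control library. All of these low genes had means under 1 FPKM, where a listed 0 can be a failed estimate.

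Of the subunits shared by all nuclear polymerases only POLR2E and POLR2H reached the level for comparison. POLR2E was at 9.65 FPKM in the SPE library and 10.1 FPKM in the control library (-0.06). POLR2H, on chromosome 13 (131741139 to 131745977), had 3.50 FPKM in the SPE library and 1.57 FPKM in the control library, a log2 ratio of 0.81 and 2.23-fold without the pseudocount. Established genes between 2 and 5 FPKM had log2 ratios from -0.59 to 0.86 in their central 95% (908 genes), so POLR2H lay inside the spread of genes at its level. POLR2K was at 0.486 FPKM in the SPE library and 1.15 FPKM in the control library. POLR2L, over the shortest locus of the 63 (1356 bases), was at 1.77 FPKM in the SPE library and listed at 0 in the control library. POLR2K and POLR2L had means under 1 FPKM and did not enter the comparison.

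Among the POLR1 genes almost all of the listed FPKM was that of POLR1D, a platform subunit shared with RNA polymerase III, on chromosome 11 (4679057 to 4728211). It was at 41.2 FPKM in the SPE library and 39.9 FPKM in the control library (log2 ratio 0.04), over a locus shared with provisional genes of at most 0.133 FPKM. Its platform partner POLR1C was at 0.0685 FPKM in the SPE library and listed at 0 in the control library. The catalytic subunits were low: POLR1B was at 0.981 FPKM in the SPE library and 0.843 FPKM in the control library, and POLR1A at 0.0679 FPKM in the SPE library and 0.0525 FPKM in the control library. The POLR1A locus is shared with PTCD3, listed at 3.11 FPKM in the SPE library and 3.54 FPKM in the control library. POLR1D thus stood 42.0-fold above POLR1B in the SPE library and 47.4-fold in the control library. POLR1E, of the dissociable heterodimer, was at 0.483 FPKM in the SPE library and 0.442 FPKM in the control library.

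RNA polymerase III showed the same unevenness. POLR3K, a small subunit used in termination, on chromosome 3 (40861850 to 40865114), had 105 FPKM in the SPE library and 114 FPKM in the control library (log2 ratio -0.13). POLR3D, of the initiation and termination subcomplex, on chromosome 14 (6955056 to 6963574), had 30.5 FPKM in the SPE library and 37.6 FPKM in the control library. Its log2 ratio of -0.29 was the lowest of the 25, and it lay within the range of -0.46 to 0.46 that held the central 95% of 322 established genes of at least 30 FPKM. The catalytic subunits POLR3A and POLR3B were at 0.0320 and 0.00312 FPKM in the SPE library, against 0.0530 and 0.0152 FPKM in the control library. POLR3G and POLR3GL are paralogs that occupy the same place in the enzyme. POLR3G was at 1.33 FPKM in the SPE library and 0.589 FPKM in the control library, while POLR3GL was at 0.708 FPKM in the SPE library and 1.03 FPKM in the control library. Both had means just under 1 FPKM, and POLR3GL shares a locus of 1647733 bases with 54 other genes, POLR3C among them. POLR3C, of the initiation trimer, was at 1.13 FPKM in the SPE library and 0.990 FPKM in the control library (0.10).

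**Figure D2:**
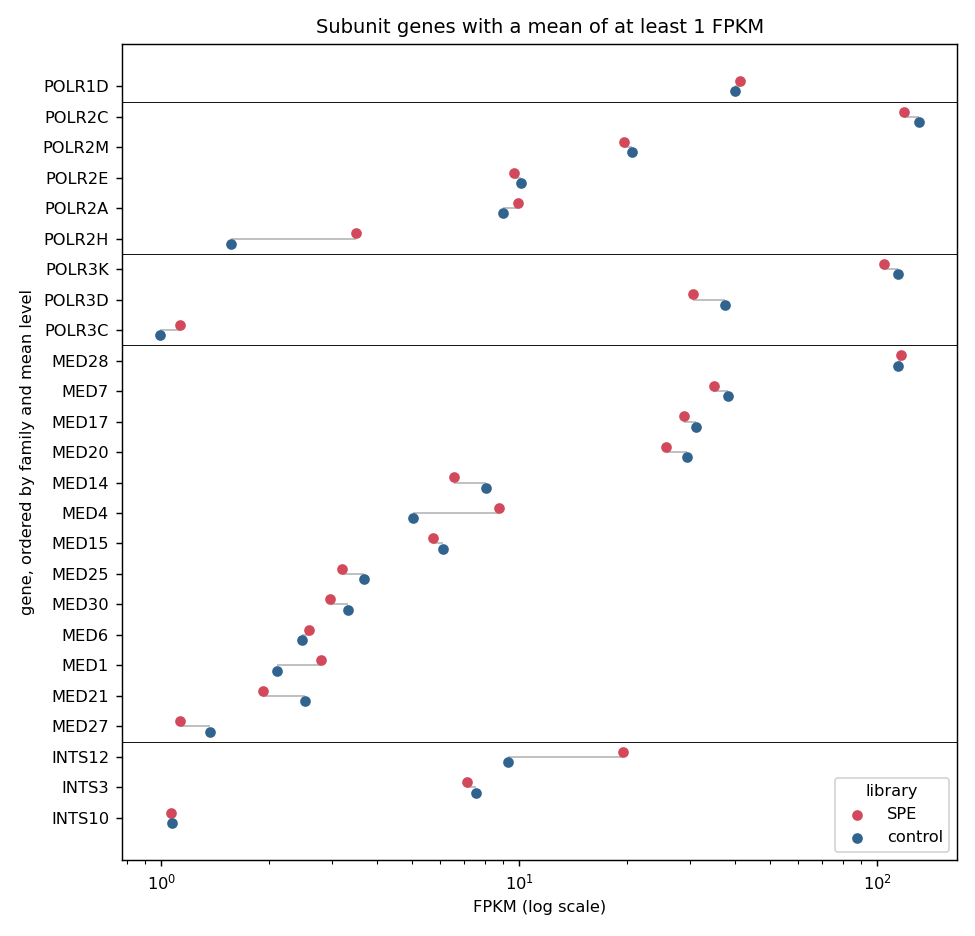
FPKM (log axis) of the 25 subunit genes that average 1 FPKM or more, with the SPE library above the control library in each row and lines between families. Most pairs nearly coincide; INTS12, POLR2H and MED4 are set apart, each with the SPE library higher.

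Mediator had 13 of its 27 genes at a mean of at least 1 FPKM, the largest share of any of the 5 families. In the head module, which contacts RNA polymerase II, MED28, on chromosome 8 (12422511 to 12431637), had 117 FPKM in the SPE library and 115 FPKM in the control library (log2 ratio 0.02). MED17, the central head subunit, was at 28.8 FPKM in the SPE library and 31.3 FPKM in the control library (-0.12). MED20 was at 25.6 FPKM in the SPE library and 29.4 FPKM in the control library (-0.19). MED30 and MED6 were at 2.95 and 2.58 FPKM in the SPE library, against 3.32 and 2.47 FPKM in the control library. The other head genes found, MED8, MED11 and MED18, stayed under 1 FPKM in both libraries. Of these MED8 had the widest difference, with 0.992 FPKM in the SPE library and 0.498 FPKM in the control library. The place of MED27 to MED30 in the head or tail varies between structural models, and they are placed here by one of them.

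In the middle module MED7, on chromosome 16 (72026131 to 72032459), had 34.9 FPKM in the SPE library and 38.2 FPKM in the control library (log2 ratio -0.13). MED4, on chromosome 11 (20010002 to 20019435), had 8.77 FPKM in the SPE library and 5.05 FPKM in the control library, a log2 ratio of 0.69 and 1.74-fold without the pseudocount. Established genes between 5 and 10 FPKM spanned -0.57 to 0.75 in their central 95% (482 genes), which includes MED4. MED21, which pairs with MED7 in a hinge, was at 1.92 FPKM in the SPE library and 2.52 FPKM in the control library (-0.27), so the partners differed in level by over 10-fold in both libraries. MED1, the subunit bound by nuclear receptors, was at 2.79 FPKM in the SPE library and 2.10 FPKM in the control library (0.29), over a locus shared with CDK12. MED9, MED10, MED19, MED26 and MED31 stayed under 0.5 FPKM in both libraries. MED19 shares its locus with TMX2, which was at 7.09 FPKM in the SPE library and 8.37 FPKM in the control library.

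MED14, the scaffold that joins head, middle and tail, on chromosome X (40452288 to 40523049), had 6.57 FPKM in the SPE library and 8.07 FPKM in the control library (log2 ratio -0.26). Of the tail, MED15, a target of many activators, was at 5.74 FPKM in the SPE library and 6.12 FPKM in the control library (-0.08). MED25 was at 3.19 FPKM in the SPE library and 3.69 FPKM in the control library (-0.16), and MED27 at 1.13 FPKM in the SPE library and 1.37 FPKM in the control library (-0.15). The tail genes MED16, MED23, MED24 and MED29 stayed under 0.2 FPKM in both libraries. MED29 shares its locus with PAF1, also listed at 0 in both. Neither kinase module gene found reached 1 FPKM. MED12 was at 0.0160 FPKM in the SPE library and listed at 0 in the control library, and MED13L at 0.441 FPKM in the SPE library and 0.772 FPKM in the control library. The kinases of the module and their cyclin carry other names. CDK8, CDK19 and CCNC together summed to 0.199 FPKM in the SPE library and 0.201 FPKM in the control library.

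Integrator had 3 of its 11 genes at a mean of at least 1 FPKM, and 1 of them gave the widest difference among the 25. INTS12, a small subunit with a PHD finger, on chromosome 8 (124530659 to 124532054), had 19.4 FPKM in the SPE library and 9.28 FPKM in the control library. Its log2 ratio was 0.99, just under 2-fold, and the ratio without the pseudocount was 2.09-fold. Centring on the median of all genes took it past 2-fold, to 1.03. Established genes between 10 and 30 FPKM spanned -0.52 to 0.73 in their central 95% (447 genes), which leaves INTS12 outside. That range is a spread across genes and not the error of a gene, and the INTS12 locus spans only 1396 bases. Robust SDs of the log2 ratio at 10 FPKM or more were 0.27 for established genes with a locus under 3 kb and 0.16 for longer ones. The sum of the 11 INTS genes was 29.2 FPKM in the SPE library and 19.9 FPKM in the control library, with INTS12 the only member more than 1 FPKM apart between the libraries.

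Of the other Integrator genes INTS3 and INTS10 were compared. INTS3, which also forms a complex with single-strand DNA-binding proteins in DNA repair, was at 7.14 FPKM in the SPE library and 7.55 FPKM in the control library (log2 ratio -0.07). INTS10 was at 1.07 FPKM in both libraries. INTS5 was at 0.442 FPKM in the SPE library and 1.18 FPKM in the control library, with a mean under 1 FPKM. In the cleavage module INTS9 was at 0.892 FPKM in the SPE library and 0.669 FPKM in the control library, and INTS4 at 0.0201 FPKM in the SPE library and 0.0282 FPKM in the control library. INTS2, INTS6, INTS7 and INTS8, of the backbone, shoulder and phosphatase parts, stayed under 0.1 FPKM in both libraries. INTS6, INTS7 and INTS8 were higher in the SPE library and INTS2 lower, at levels too low to compare.

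Between the libraries the 25 genes compared were close. None was at or beyond 2-fold on the log2(FPKM + 1) scale, where 4.99% of all 4391 genes of at least 1 FPKM were, and 1.91% of the 3030 with an established symbol. A count of 0 among 25 is near that background, and with a pseudocount of 0.1 FPKM it was 2 (INTS12 and POLR2H), where 9.25% of all genes passed. At 1.5-fold 3 of the 25 were higher in the SPE library, INTS12, POLR2H and MED4, and none was lower. The matching shares were 7.54% higher and 5.67% lower over all genes, and 5.18% higher and 2.97% lower over established symbols. The median log2 ratio of the 25 was -0.07, and that of all 4391 genes was -0.04. Of the 25, 9 were above 0 and 16 below, but the mean was 0.03, carried by the same 3 genes. More genes lay below 0 than above in the wider sets too. Of the 4391 genes 1957 were above 0 and 2434 below, and of the 3030 established symbols 1305 were above and 1725 below.

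**Figure D3:**
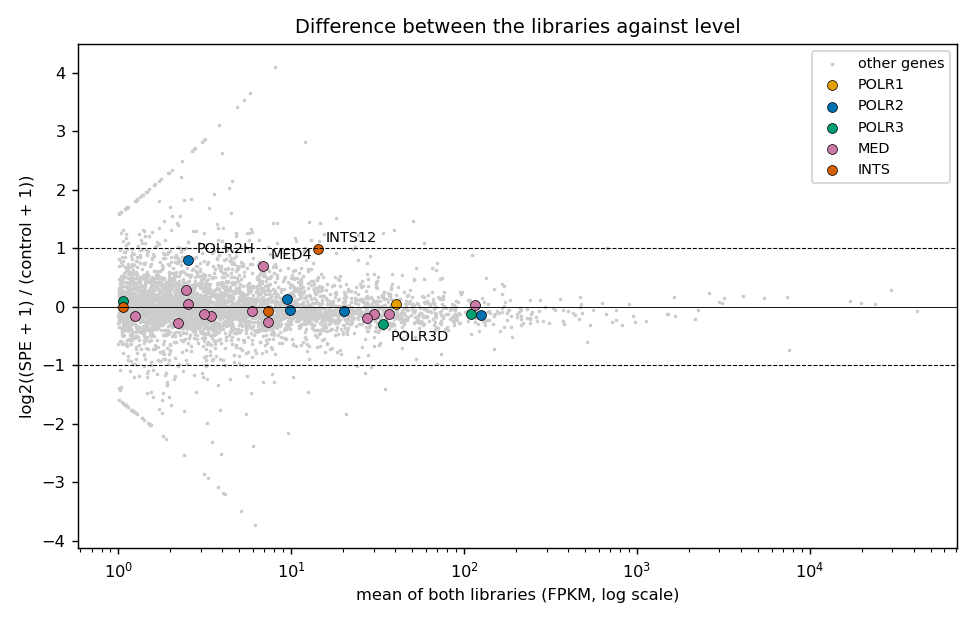
Log2((SPE + 1) / (control + 1)) against the mean FPKM of both libraries (log axis) for genes of at least 1 FPKM, with subunit genes coloured by family, other genes in grey and dashed lines at 2-fold. The 25 subunit genes lie between -0.29 (POLR3D) and 0.99 (INTS12), inside the dashed lines.

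By family, medians of the log2 ratio were 0.04 for the 1 POLR1 gene compared, -0.06 for 5 POLR2 genes, -0.13 for 3 POLR3 genes, -0.13 for 13 MED genes and -0.004 for 3 INTS genes. The means of POLR2 (0.13) and INTS (0.31) had the opposite sign to their medians, through POLR2H and INTS12. Summed FPKM was 165 in the SPE library and 174 in the control library for POLR2, and 139 in the SPE library and 155 in the control library for POLR3. For MED it was 245 in the SPE library and 252 in the control library, and for POLR1 42.8 in the SPE library and 41.3 in the control library. The 63 genes together made up 0.247% of all FPKM in the SPE library and 0.258% in the control library.

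Subunits that the table lists under other symbols fell into the same pattern of a few high and many low genes. VWA9, the Integrator subunit also called INTS14, was at 13.4 FPKM in the SPE library and 13.6 FPKM in the control library, which put it above every INTS gene in the control library and below INTS12 alone in the SPE library. CRCP, a stalk subunit of RNA polymerase III, was at 4.87 FPKM in the SPE library and 4.33 FPKM in the control library. CPSF3L, the catalytic endonuclease of Integrator also called INTS11, was listed at 0 in both libraries. ASUN, also called INTS13, was at 0.212 FPKM in the SPE library and 0.142 FPKM in the control library. The RNA polymerase I genes ZNRD1, CD3EAP and TWISTNB stayed under 0.5 FPKM in both libraries. DDX26B, also called INTS6L, was listed at 0 in both libraries. The rule found no gene under the symbols POLR2F, POLR2J, POLR3E, MED12L, MED13, MED22 or INTS15, so these were not analysed here.

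The factors that work with these complexes were counted in the same way. Of 125 listed genes 115 were found and 46 reached a mean of at least 1 FPKM. None of the 46 was at or beyond 2-fold, none was 1.5-fold higher in the SPE library and 2 were 1.5-fold lower, with a median log2 ratio of 0.05. Over all genes the shares were 4.99% at 2-fold, and 7.54% higher and 5.67% lower at 1.5-fold. Over established symbols, which all of the 46 have, they were 1.91% at 2-fold, and 5.18% higher and 2.97% lower at 1.5-fold. The 2 lower genes were MEPCE, the capping enzyme of the 7SK RNA that restrains elongation, at 0.695 FPKM in the SPE library and 2.15 FPKM in the control library (-0.90), and TAF10, at 1.45 FPKM in the SPE library and 2.74 FPKM in the control library (-0.61). Of the general factors of RNA polymerase II 7 of 20 found were compared, with GTF2A1L, a germ cell form of TFIIA, highest at 5.22 FPKM in the SPE library and 4.30 FPKM in the control library. Of the TBP-associated factors 9 of 13 were compared, with TAF7 highest at 30.7 FPKM in the SPE library and 27.2 FPKM in the control library. Of the pausing and elongation factors 11 of 30 were compared, with SSRP1, of the histone chaperone FACT, highest at 9.60 FPKM in the SPE library and 9.63 FPKM in the control library.

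Of the factors for RNA polymerase III 7 of 13 were compared, and SNAPC5, of the complex that recognises small nuclear RNA promoters, was highest at 58.6 FPKM in the SPE library and 77.8 FPKM in the control library (log2 ratio -0.40). TAF1A, of the RNA polymerase I selectivity factor, was the highest of its list at 12.5 FPKM in the SPE library and 14.2 FPKM in the control library. CSTF1, of the cleavage stimulation factor, was the highest of the termination list at 11.7 FPKM in the SPE library and 9.05 FPKM in the control library. CTDP1, a phosphatase of the RNA polymerase II tail, led its list at 3.23 FPKM in the SPE library and 4.10 FPKM in the control library. INIP, which binds INTS3, had the highest mean of the Integrator partners, at 4.99 FPKM in the SPE library and 6.69 FPKM in the control library (-0.36). NABP1 was close to it, and above it in the SPE library, at 5.72 FPKM in the SPE library and 5.90 FPKM in the control library.

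**Figure D4:**
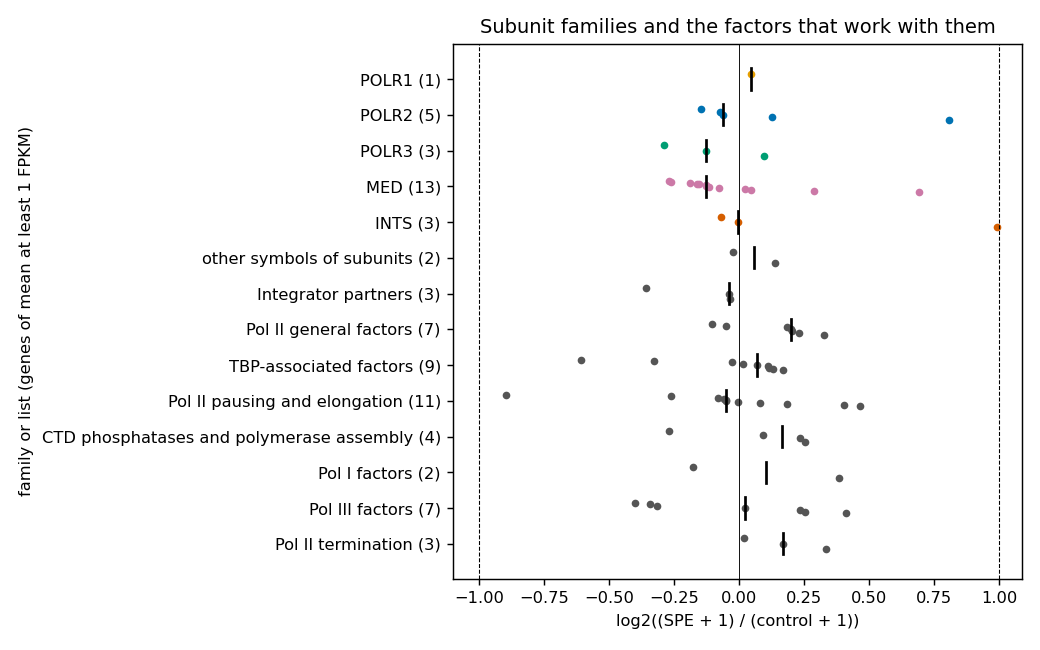
Log2((SPE + 1) / (control + 1)) of each gene that averages 1 FPKM or more, by subunit family (coloured) and by list of partner factors (grey), with the number of genes in brackets, black bars for medians and dashed lines at 2-fold. All points lie inside the dashed lines; INTS12 (0.99) and MEPCE (-0.90) are nearest to them.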

How the data were processed

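The deposited table gives FPKM values per gene, which the authors scaled to transcript length and mapped fragments, per the file's name. Bowtie2 2.2.5, RSEM and the mouse build mm9 are named in the submitters' processing notes, while the loci lie on pig chromosome accessions. What program, annotation and build made them is not stated. The control and SPE columns were matched by name and number; 2 further columns, by their names a second control (Con2) and a second spermidine library (SPD2), matched no sample used here and were not used. Locus starts, which count from 0, were raised by 1.

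Differences were computed as log2((SPE + 1) / (control + 1)) for genes averaging 1 FPKM or more (Python 3.11.15, pandas 2.3.3, SciPy 1.17.1). Depth is unknown: among 5128 genes of low FPKM in both libraries 4.45% shared the most frequent ratio of 1.03 within 0.001, and whole reads were not recovered. FPKM is relative, so genes that take more of a library lower the others.

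Members and lists were chosen with earlier results of these data known. The naming rule took members of at least 5 FPKM and, per family, the 3 highest and the 3 most positive and negative ratios, and of each list its highest gene. Other members, MEPCE, TAF10 and the genes sharing a locus were named after their values were seen, so that each subunit is accounted for. No sequences of the pig genes were used here.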

Additional observations from a re-analysis of the deposited data

How the results depend on the processing

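No paired analysis was made because 1 library per group was used, with Con2 and SPD2 left out. The count of genes at or beyond 2-fold, 0 as reported, became 2 with a pseudocount of 0.1 FPKM (INTS12 and POLR2H) and 2 on the TPM scale (the same 2 genes), where 9.25% and 8.40% of all genes passed. It became 1 when ratios were centred on the median of all genes and 1 when scaled by the sum outside mitochondrial genes and ribosomal RNA (INTS12 in both), where 5.22% and 5.19% passed. It was 1 with no minimum level (POLR2L, listed at 0 in the control library), where 0.989% passed, and 3 under the 1.5-fold rule, which 13.2% of all genes passed. The log2 ratio of INTS12 ranged from 0.77 (pseudocount of 5 FPKM) to 1.06 (0.1 FPKM), and that of POLR2H from 0.37 to 1.11 under the same settings. The INTS median became 0.46 with a minimum of 5 FPKM, which leaves INTS12 and INTS3. Every other median moved by less than 0.1, and scaling shifted the median of all genes by less than 0.1. Among 24 named members only INTS10, near 0, changed sign; 10 of the 25 genes, in place of 9, lay above 0 when centred or scaled by the non-mitochondrial sum. With loci of no other gene no POLR1 gene was left to compare. Low FPKM values and short loci limit what single values show.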
